A study of Caenorhabditis elegans with 2 samples.

Results

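The nuclear tRNA genes of the nematode Caenorhabditis elegans were examined for candidate binding peaks of CEH-58, a protein of the homeodomain family. They were taken as every gene annotated as tRNA on the 6 nuclear chromosomes (Ensembl release 115, WBcel235), and each was read with 200 bp to either side. This gave 612 of the 46890 annotated genes, and the rule uses annotation alone. Chromatin immunoprecipitation sequencing (ChIP-seq), which reads the DNA held by a precipitated protein, had been run with an anti-GFP antibody on whole young adults at 65 hours. The worms were of strain OP808, whose integrated transgene wgIs808 holds a fosmid copy of ceh-58 tagged with TY1, EGFP and 3xFLAG together with unc-119(+), in animals that carry unc-119 (tm4063). They had been synchronised by bleaching and starvation as L1 larvae, and the chromatin had been sonicated to between 200 and 800 bp. Both samples were biological replicates of this 1 group, with 2 replicates in all and no second condition. The data come from 1 transgenic line and from whole animals, so cell types cannot be told apart. Control data were not analysed here, so the part of the signal at tRNA genes that arises without the tagged protein was not tested.

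RNA polymerase III transcribes tRNA genes from promoters that lie inside the gene. The factor TFIIIC binds the A box near the 5′ end and the B box near the 3′ end, and places TFIIIB upstream of the start, where it recruits the polymerase, which stops at a run of T after the gene. Genes for one isotype, named for the amino acid the tRNA carries, are spread over the chromosomes in many identical copies. Homeodomain proteins are known mainly as regulators of protein-coding genes.

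Genes with high signals and large families without a reproducible peak are shown first, since the results turn on them. The second set was chosen after its values were seen. Sequences are those of the RefSeq WBcel235 genome on the coding strand, 5′ to 3′. Capitals mark the A box core TNGCNNAG, searched from the first 25 bases, and the B box core GTTCNANNC, searched from base 36, both on the coding strand alone, where N is any base. These 6 had the highest signals among the genes that can be shown and lie nearest to a reproducible summit, with 1 gene per sequence, and all lie on X or V:
T07H6.t2 (Ala, chrX:6292278-6292349, minus strand): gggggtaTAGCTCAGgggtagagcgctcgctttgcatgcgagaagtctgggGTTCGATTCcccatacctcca
C33G3.t2 (Lys, chrX:14063946-14064018, minus strand): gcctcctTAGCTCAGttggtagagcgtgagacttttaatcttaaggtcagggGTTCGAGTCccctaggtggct
R11.t1 (Tyr, chrX:16209769-16209852, minus strand): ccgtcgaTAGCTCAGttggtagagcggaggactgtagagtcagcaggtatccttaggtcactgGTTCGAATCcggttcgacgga
T03E6.t1 (Gln, chrV:16592237-16592308, minus strand): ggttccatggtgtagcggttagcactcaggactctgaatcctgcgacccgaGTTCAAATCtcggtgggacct
ZC455.t1 (Ser, chrV:12780386-12780467, minus strand): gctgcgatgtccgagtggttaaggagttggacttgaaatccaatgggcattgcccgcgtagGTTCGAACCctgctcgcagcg
C18A11.t1 (Pro, chrX:8037507-8037578, plus strand): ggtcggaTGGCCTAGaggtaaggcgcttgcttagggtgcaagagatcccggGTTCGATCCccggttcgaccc
Families of 12 Val and 11 Gly copies with no copy at a reproducible peak are larger but are not shown. Among families that can be shown, the largest with no such copy are represented by these 2 genes, each present in 10 identical copies:
C03A3.t1 (Arg, chrX:11252590-11252662, minus strand): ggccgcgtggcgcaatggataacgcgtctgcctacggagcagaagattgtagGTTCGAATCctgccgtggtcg
Y66D12A.t1 (Phe, chrIII:11554825-11554897, plus strand): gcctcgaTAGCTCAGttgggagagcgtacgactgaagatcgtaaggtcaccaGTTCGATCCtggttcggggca
The Phe gene holds both box cores, as T07H6.t2, C33G3.t2, R11.t1 and C18A11.t1 do. The Arg gene holds the B box core alone, as T03E6.t1 and ZC455.t1 do. Among these few genes, which were picked by their signals and calls, the cores did not separate those with a reproducible peak from those without one. They do not show how the cores relate to the calls over all tRNA genes.

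Candidate peaks were found at most tRNA genes, and reproducible ones at a minority. A candidate is a peak of the authors' long list that ranks peaks jointly in both replicates, 105945 in number, and it was counted at a gene when its summit lay within 200 bp. Candidates lay at 484 of the 612 genes (79.1%, exact 95% interval 75.6 to 82.2), against 45.8% of 212439 genome tiles of the same length of 472 bp. A candidate is called reproducible here when its IDR is 0.01 or lower. The IDR (irreproducible discovery rate) estimates the fraction of peaks down to that rank that do not recur between replicates. This held for 64 genes (10.5%, interval 8.15 to 13.2), against 0.304% of the tiles. The 482 candidates at tRNA genes included 55 reproducible ones (11.4%), where the share over all candidates was 0.618%. All 55 are also in the authors' conservative list, which reached 0.226% of the tiles. The optimal list, the authors' call on pooled reads, marked 77 genes, against 0.339% of the tiles. At an IDR of 0.05 the genes numbered 131 (21.4%), against 1.01% of the tiles. Intervals cover counting error only, and neighbouring or identical genes are not independent.

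Each replicate gave the excess of candidates by itself, but few tRNA genes passed the IDR limit within 1 replicate. In its own list, replicate 1 had a candidate at 409 genes (66.8%), against 26.8% of the tiles. Replicate 2 had one at 418 genes (68.3%), against 26.5% of the tiles. At an IDR of 0.01 within its own list, replicate 1 marked 17 genes (2.78%, interval 1.63 to 4.41; 0.127% of the tiles). Replicate 2 marked 3 genes (0.490%, interval 0.101 to 1.43; 0.11% of the tiles), and 1 gene, T21B4.t1, was marked in both. Of the 64 genes reproducible between the replicates, 63 had some candidate in both of the replicates' own lists. What the IDR compares within the list of a single replicate is not known here, so these counts are not the same measure as the 64 genes. At that limit the own lists hold 276 and 241 peaks for replicates 1 and 2, against 655 in the joint list. The share of genes called therefore rests on the ranking of both replicates together. The excess of reproducible candidates over the tiles was shared by snoRNA and snRNA genes but not by miRNA genes. A reproducible candidate lay at 8.38% of snoRNA genes (interval 5.69 to 11.8) and at 7.75% of snRNA genes (interval 3.78 to 13.8). Both intervals overlap that of tRNA genes. Any candidate lay at 72.3% of snoRNA genes. Of 261 miRNA genes, 60.9% had any candidate and 1 a reproducible one (0.383%, interval 0.0097 to 2.12). Within the replicates' own lists, 5.20% and 3.76% of snoRNA genes were reproducible in replicates 1 and 2.

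**Figure D1:**
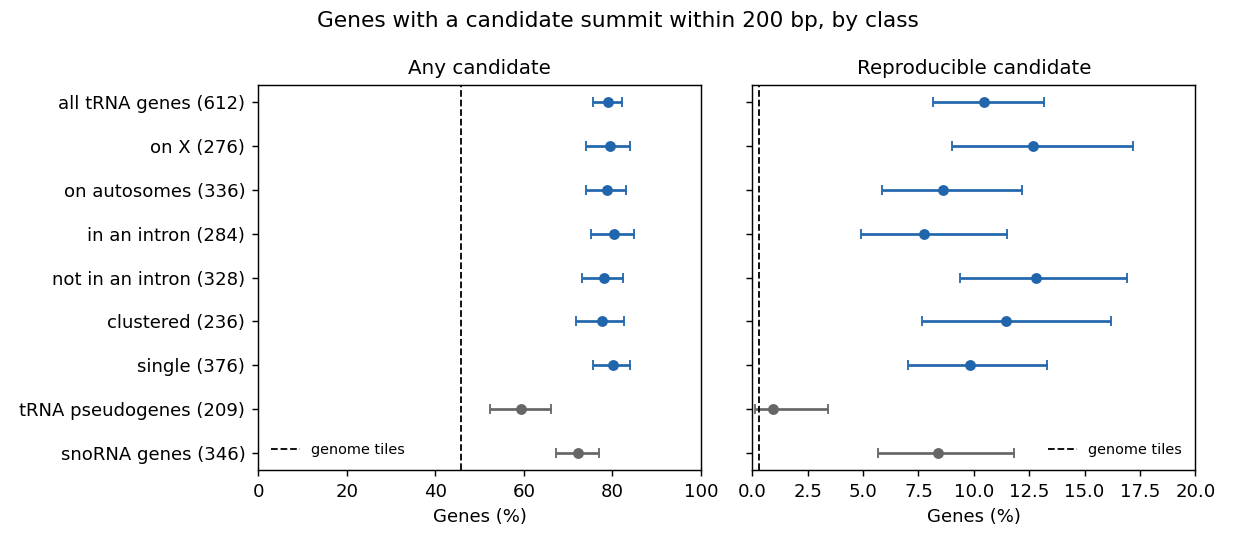
Share of genes (%, horizontal axis) with any candidate (left) and with a reproducible candidate (right), for tRNA gene classes (blue) and for tRNA pseudogenes and snoRNA genes (grey), with the number of genes in brackets. Points are shares, bars are exact 95% intervals and the dashed line is the share of genome tiles. The tRNA gene classes lie between 7.75% and 12.8% for reproducible candidates, with overlapping bars, the snoRNA genes at 8.38% and the tRNA pseudogenes at 0.957%.

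The signal at tRNA genes was raised above the genome but did not reach that of the highest peaks. The signal is the authors' value for each peak. Among genes with a candidate, the highest signal per gene had a median of 38.8 and ranged from 6.76 to 120.4, while tiles with a candidate had a median of 22.9. Over candidates, the median was 36.1 at tRNA genes and 21.9 elsewhere. Once the comparison was limited to reproducible candidates, the median was 73.5 at tRNA genes (n = 55) and 77.5 elsewhere (n = 600). The highest signal at a tRNA gene ranked only 124 among the 655 reproducible candidates.

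The highest values lay at Ala, Thr, Lys and Ile genes. At T07H6.t2, an Ala gene outside any protein-coding intron, the signal was 120.4, with 76.4 in replicate 1 and 39.9 in replicate 2. At F15G9.t1, an Ala gene in an intron of him-4, which encodes the extracellular matrix protein hemicentin, it was 120.1, with 72.6 and 48.0 in replicates 1 and 2. The neighbouring F15G9.t2, another Ala gene with a different anticodon, lay within 200 bp of the same summit and shares these values. At R01H5.t1 (Thr, X) the signal was 111.2, with 67.5 and 42.5 in the replicates. Replicate 1 was thus higher at these 3 summits, by 1 library against the other with no scaling for depth. C33G3.t2 (Lys, X) differed from them, with 56.8 in replicate 1 and 57.2 in replicate 2 behind a signal of 109.9. T21B4.t1 (Ile, II), in an intron of the collagen gene col-85, had 106.3, with 62.4 and 42.1. F52C9.t1 (Thr, III) had 100.8, with 65.8 and 32.5. These 6 summits were the ones with a signal over 100.

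Below them, the summits ranked 7 to 15 held signals from 96.0 at R11.t1 (Tyr, X) down to 82.9 at C28G1.t1 (Glu, X). In this range lay M02F4.t1 (Gly, X, 95.8), T23F1.t1 (Lys, V, 93.9), whose summit also lies within 200 bp of T23F1.t2, the highest Pro gene, T03E6.t1 (Gln, V, 92.2) and C42D8.t1 (Ile, X, 84.5). So did sup-7 (Trp, X, 84.6), the tRNA gene known for its amber suppressor alleles, and F53F8.t1 (Cys, V, 83.4) and ZC455.t1 (Ser, V, 82.9). At sup-7 and ZC455.t1 replicate 2 was the higher one, with 37.4 and 44.2 at sup-7 and 36.3 and 47.1 at ZC455.t1 in replicates 1 and 2. Over the 55 reproducible summits, the value that the joint list gives for the first replicate was higher in 41, with medians of 41.1 and 32.9 for the first and second. Across these summits the log2 values of the replicates had a Pearson correlation of 0.22 (Spearman 0.088), and across the 482 candidates 0.43 (Spearman 0.458). Across the 600 reproducible candidates elsewhere it was 0.86 (Spearman 0.542), over signals of up to 3627. The reproducible summits at tRNA genes were selected by rank in both replicates and span a narrow range. All these values are descriptions over peaks of the same 2 libraries. The order of the reproducible summits at tRNA genes differed between the replicates.

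The call at the threshold divides close values. F33G12.t1 (Ile, II) lay just outside, with a −log10 IDR of 1.999, a signal of 73.7 and replicate values of 51.1 and 23.0. F14B8.t1 (Leu, X) lay just inside, with a −log10 IDR of 2.08. W02G9.t1 (Thr) had the highest signal without a reproducible call, 76.3 at a −log10 IDR of 1.94. Its signal exceeded the 46.3 of W10G11.t1 (Lys), a reproducible candidate, so the signal and the call do not order the genes alike.

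Cys genes came first by the share of reproducible genes and by the median signal. Of the 13 Cys genes, 6 had a reproducible candidate (46.2%, interval 19.2 to 74.9), and 10 at an IDR of 0.05. Their median signal was 57.0 among genes with a candidate, against 38.8 over all tRNA genes. Cys was also first of the 20 isotypes with at least 10 genes in each replicate's own list, with a median of 33.6 in replicate 1 and 28.1 in replicate 2, where all tRNA genes had 24.0 and 19.9. No Cys gene passed the IDR limit within either replicate alone. The reproducible copies were F53F8.t1 (83.4), C37A2.t1 (79.5), ZC412.t2 (67.8), K04A8.t3 (54.1), and K01A12.t4 and K01A12.t5, which share 1 summit (66.8). All 6 lie in introns of protein-coding genes, among them cye-1, which encodes cyclin E. Of all 13 Cys genes 9 are intronic, as are 46.4% of all tRNA genes. Of the 13 genes 12 are identical in sequence, so these values describe copies of 1 sequence and not 13 separate ones. The Cys gene with a sequence of its own, T28C12.t1, had a signal of 45.9 and was not reproducible.

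Ala genes came next, with 8 of 34 reproducible (23.5%, interval 10.7 to 41.2) and a median signal of 50.2. In the replicates' own lists the Ala median ranked 10th of 20 in replicate 1 (24.3) and second in replicate 2 (27.2). Cys and Ala were the 2 isotypes whose interval lay wholly above the share over all tRNA genes, and no isotype's interval lay wholly below it. The intervals were not adjusted for the 20 isotypes compared. The lower bound for Ala lies close to the overall share of 10.5%, and 2 of its 8 genes share 1 summit. With 1 gene kept per identical sequence, the Ala share was 15.4% of 13 sequences. The gene kept was the first in the order I to V, then X, so reproducible copies on X could be dropped. Thr (6 of 34, 17.6%), Pro (7 of 42, 16.7%) and Lys (7 of 46, 15.2%) followed, with intervals that include the overall share. At the low end, 1 of 44 Arg genes (2.27%) and 2 of 55 Gly genes (3.64%) were reproducible. None of 31 Val genes was, which allows a share of up to 11.2% (exact 95% interval), and none of 14 Phe genes, which allows up to 23.2%. At an IDR of 0.05, 6 Val genes were called and no Phe gene, a share of 19.4% for Val beside 21.4% over all tRNA genes. The 5 genes of undetermined isotype and the single selenocysteine (Sec) gene had no reproducible candidate.

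The remaining isotypes lay between these. Glu had 5 of 41, Leu 4 of 39, Gln 3 of 27, Ile 3 of 29, Ser 3 of 39, Tyr 2 of 19, Asn 2 of 20 and Asp 2 of 27. His, Met and Trp had 1 gene each, of 20, 20 and 12. With 1 gene kept per identical sequence, Glu, Gln, Tyr, Asn, His, Met, Trp, Arg and Gly had no reproducible gene left. The gene kept was the first in the order I to V, then X. An X copy was thus kept only where no autosome held the same sequence. In the group of 29 identical Gly genes, 10 copies lie on I and both reproducible copies on X. The loss of these calls therefore depends on which copy is kept. The gene with the highest signal reached 78.4 for Asn (F41D9.t3), 77.4 for Asp (F38G1.t2, in an intron of egl-17, a fibroblast growth factor gene), 76.4 for Leu (W02H3.t1) and 72.7 for Arg (F35H8.t1). It was 64.8 for His (Y65A5A.t4) and 52.8 for the reproducible Met gene (Y22D7AL.t3), whose summit lies nearer to the Glu gene Y22D7AL.t4. The highest signals without a reproducible call were 67.1 for Met (T15B12.t1), 59.7 for Val (F22G12.t1) and 46.3 for Phe (Y95D11A.t1). Medians over genes with a candidate ran from 30.6 for Phe to 57.0 for Cys, a narrower range than that of single genes within most isotypes. Across the 20 isotypes, the medians in the own lists of the replicates had a Spearman correlation of 0.398 (Pearson 0.498). That is a description over 20 points that share 2 libraries, and Cys, Ser and Arg held the same rank in both replicates while others did not.

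**Figure D2:**
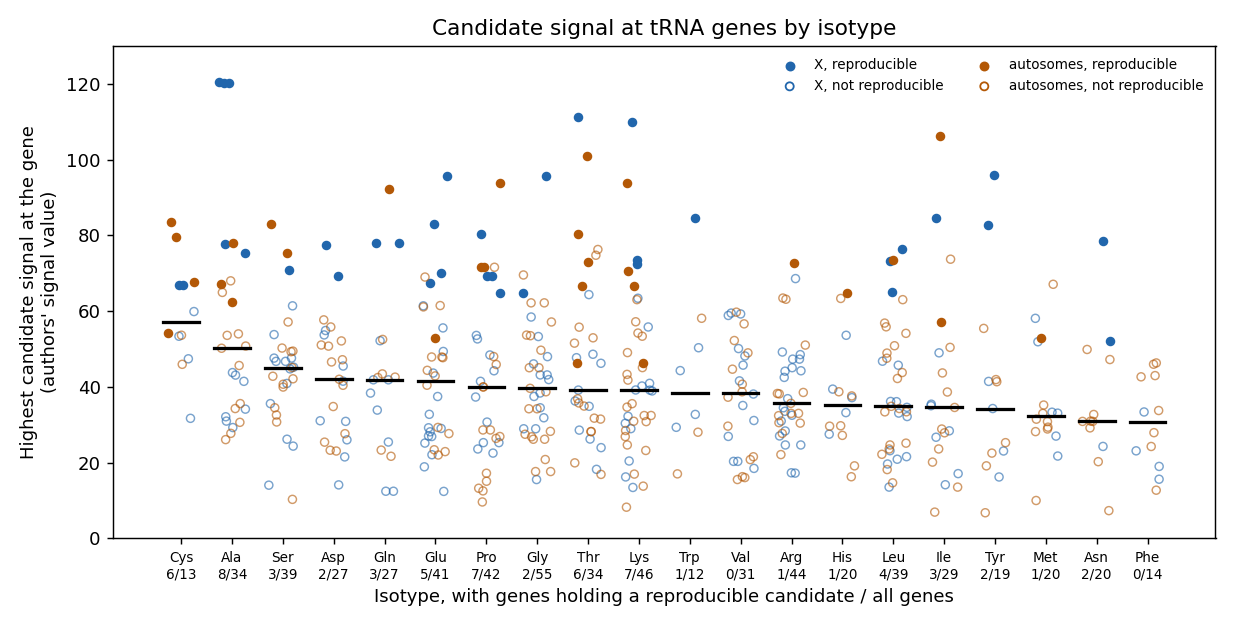
Highest candidate signal (authors' signal value, vertical axis) at each tRNA gene with a candidate, by isotype in order of the median (black bar), for the 20 isotypes with at least 10 genes. Filled points have a reproducible candidate, open points do not, blue is X and brown is autosomes; the numbers under each name are reproducible genes and all genes. Cys has the highest median (57.0) and the points of most isotypes span the range of the medians.

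**Figure D3:**
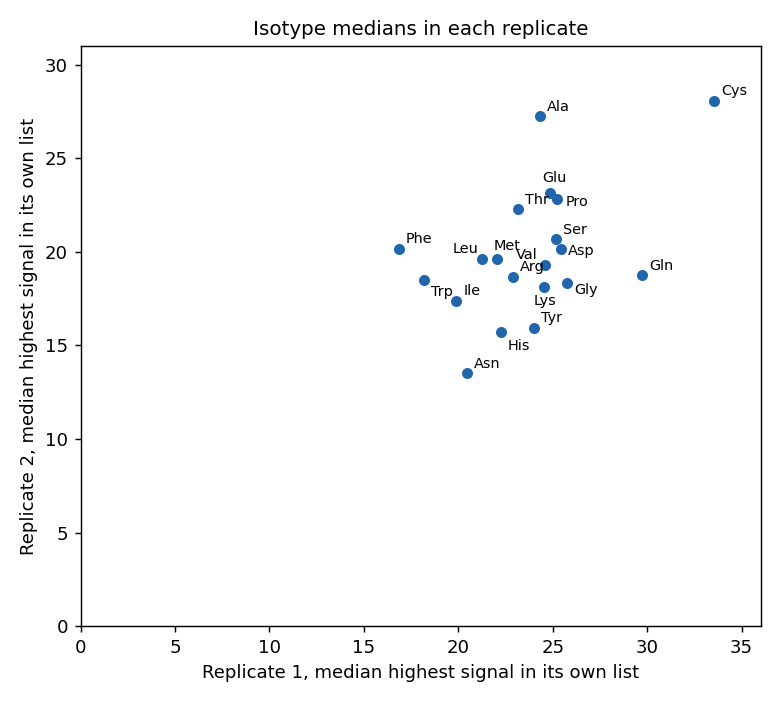
Median of the highest signal per gene in the own candidate list of replicate 1 (horizontal axis) and of replicate 2 (vertical axis), both in the authors' signal value, with 1 point per isotype. Cys lies at the top right (33.6 and 28.1), and Phe is lowest in replicate 1 and 7th in replicate 2.

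The X chromosome carries 276 of the 612 tRNA genes (45.1%). Reproducible candidates lay at 35 of these (12.7%, interval 8.99 to 17.2) and at 29 of the 336 autosomal genes (8.63%, interval 5.86 to 12.2), and the intervals overlap. Tiles called were 0.29% on X and 0.306% on autosomes, so tRNA genes stood above both backgrounds. Any candidate was found at 79.3% of X genes and 78.9% of autosomal genes, against 48.7% and 45.2% of the tiles. Median signals were 39.1 and 38.7. At an IDR of 0.05 the order turned, with 20.3% on X and 22.3% on autosomes, against 0.911% and 1.03% of the tiles. Replicate 1 alone marked 10 X genes (3.62%) and 7 autosomal genes (2.08%), against 0.101% and 0.133% of the tiles. Replicate 2 alone marked 1 X gene (0.362%) and 2 autosomal genes (0.595%), against 0.115% and 0.109% of the tiles. The difference between X and autosomes thus did not hold up over the limits and replicates.

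Among the autosomes, chromosome V had 11 of 78 genes reproducible (14.1%), II 7 of 57 (12.3%), III 6 of 64 (9.38%), IV 3 of 71 (4.23%) and I 2 of 66 (3.03%). The intervals of I (0.369 to 10.5) and V (7.26 to 23.8) overlap. At an IDR of 0.05 chromosome V had the lowest share of these, 14 of 78 (17.9%), and II the highest, 17 of 57 (29.8%), so the order of chromosomes depends on the limit. Within isotypes, 20 had at least 5 genes on both X and autosomes. The reproducible share was higher on X in 11 of them, higher on autosomes in 7 and equal in 2, whereas any candidate was more frequent on X in 7 and on autosomes in 13. Both reproducible Gly genes, M02F4.t1 and K09C8.t1, lay on X, while 4 of the 6 autosomal Cys genes were reproducible against 2 of 7 on X.

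Of the tRNA genes, 284 lie whole in an intron of a protein-coding gene, on either strand. Reproducible candidates lay at 22 of them (7.75%, interval 4.92 to 11.5) and at 42 of the 328 others (12.8%, interval 9.39 to 16.9). The tiles differ in the same direction, with 0.138% whole in introns and 0.331% elsewhere. Within X the shares were 10.5% and 13.8%, and within autosomes 6.35% and 11.6%. Any candidate was found at 80.3% of intronic genes and 78.0% of the others, against 38.3% and 47.1% of the tiles. At an IDR of 0.05 the intronic share was 21.8% and the other 21.04%, against 0.709% and 1.06% of the tiles, so the difference did not hold at the looser limit. Of the 162 intronic genes on the strand of a host 8.02% were reproducible (interval 4.34 to 13.3), and of the 122 others 7.38% (interval 3.43 to 13.5).

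Clusters were defined by another tRNA gene within 1000 bp, which put 236 genes into 100 clusters of up to 6 genes. Reproducible candidates lay at 27 clustered genes (11.4%, interval 7.68 to 16.2) and at 37 of 376 single genes (9.84%, interval 7.02 to 13.3). A summit between neighbouring genes counts for both, and 10 of the 55 summits lay within 200 bp of 2 genes. When each summit was given to its nearest gene, the order turned by 2.64 percentage points in favour of single genes. On X the clustered share was 11.9% and the single share 13.5%, and on autosomes 10.9% and 7.66%. The difference between clustered and single genes thus did not hold up.

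Reproducible summits lay mainly inside the tRNA genes. Of the 55 reproducible summits, 41 (74.5%) fell within the gene, which makes up 15.3% of the region read, 10 lay upstream and 4 downstream. The median distance from the 5′ end of the gene was 23 bp along the gene, with quartiles of 6.5 and 44 bp. The extremes were 42 bp upstream and 212 bp downstream of that end. The summit at 212 bp, at F44A2.t1, had a signal of 9.04 and the same replicate values as another reproducible summit of that gene. The next furthest lay at 100 bp (C16C8.t1). For all 482 candidates the share within the gene was 47.9%, with a median of 26 bp. On X 25 of 30 reproducible summits lay within the gene, and on autosomes 16 of 25. From the B box core the reproducible summits lay a median of 30.5 bp toward the 5′ end, and 14 of 54 were within 20 bp of its start. All 482 peaks were 236 bp wide and the fragments up to 800 bp long, so the summits do not separate the A box from the B box. Within the gene itself, the median share of 31-base words found once in the genome was 0%. How far the summit positions depend on the placing of reads was not tested.

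**Figure D4:**
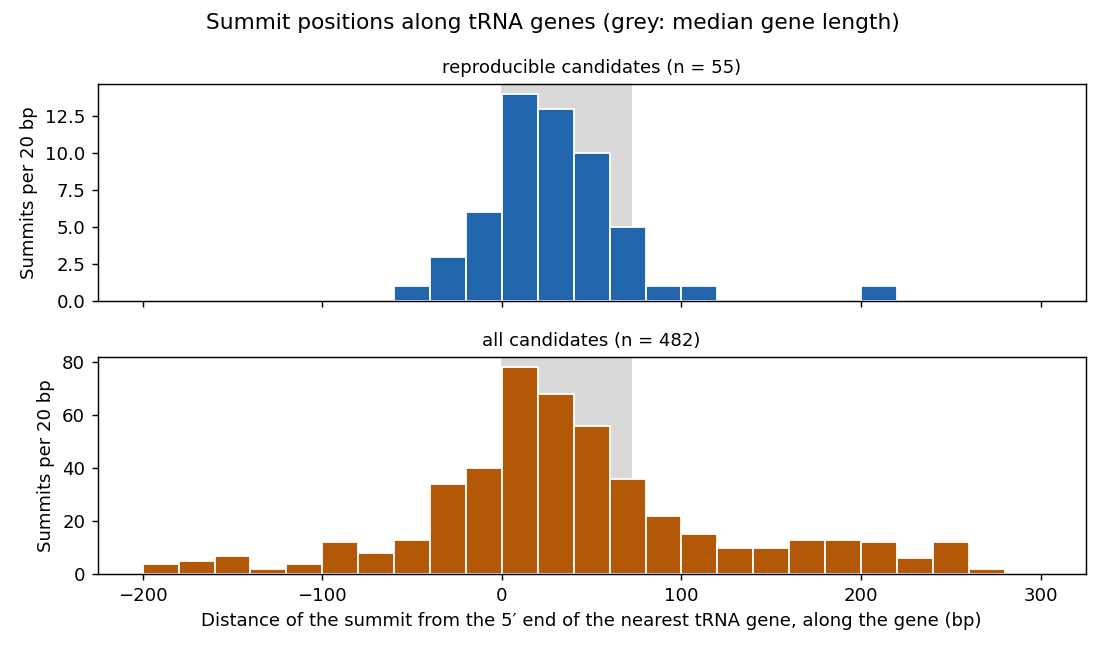
Number of candidate summits per 20 bp (vertical axis) by distance from the 5′ end of the nearest tRNA gene along its strand (bp, horizontal axis), for reproducible candidates (top, n = 55) and all candidates (bottom, n = 482). The grey band is the median gene length of 72 bp. Both histograms peak inside the gene, and the reproducible summits lie closer to it.

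A run of T (TTTT within 20 bp after the gene) was present at 98.4% of genes with a reproducible candidate and 98.4% of those without.

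Identical genes differed in signal. The 612 genes comprised 200 sequences, of which 143 occurred once and 57 in groups that together hold 469 genes. In 27 groups some copies had a reproducible candidate and others did not, in 30 no copy had one, and in no group did every copy have one. Over all tRNA genes 10.5% were reproducible, and at so low a share few groups would be called in full. These counts by themselves therefore do not set identical copies apart from other tRNA genes. The largest group with both kinds of copy, 29 Gly genes, had 22 genes with a candidate. Their signals ran from 17.6 to 95.8, with a median of 45.0. Its 2 reproducible copies were M02F4.t1 (95.8) and K09C8.t1 (64.9). The summit of M02F4.t1 also lies within 200 bp of M02F4.t2, a Glu gene. In the 25 copies of a Lys gene 3 were reproducible (range 13.4 to 70.6), and in the 24 copies of a Pro gene 4 were (range 9.61 to 93.9). Of these Pro copies, W09D6.t1 and W09D6.t2 share 1 summit, and the 93.9 of T23F1.t2 belongs to the summit inside the Lys gene T23F1.t1. The 10 copies of the Arg gene shown above had candidates at 7 copies, with a median signal of 44.2, and those of the Phe gene at 8 copies, with 26.1.

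Reproducible candidates were found at 12.9% of genes with over 10 copies (37 of 287, interval 9.24 to 17.3) and at 6.29% of genes with 1 copy (9 of 143, interval 2.92 to 11.6). Any candidate was found at 79.4% and 81.8% of them. Of the 17 groups of over 10 copies, 15 had a reproducible copy, and the 12 Val copies and the 11 copies of a second Gly gene had none. Reads from identical genes cannot be placed within the gene itself, and the authors' treatment of such reads was not known here. The median share of 31-base words found once in the genome was 50.7% over the regions of reproducible genes and 46.7% over the others. Regions at least 50% unique had a reproducible share of 12.6% (33 of 262) and the rest 8.86% (31 of 350). Whether reads of 1 copy add to the signal of another was not tested.

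**Figure D5:**
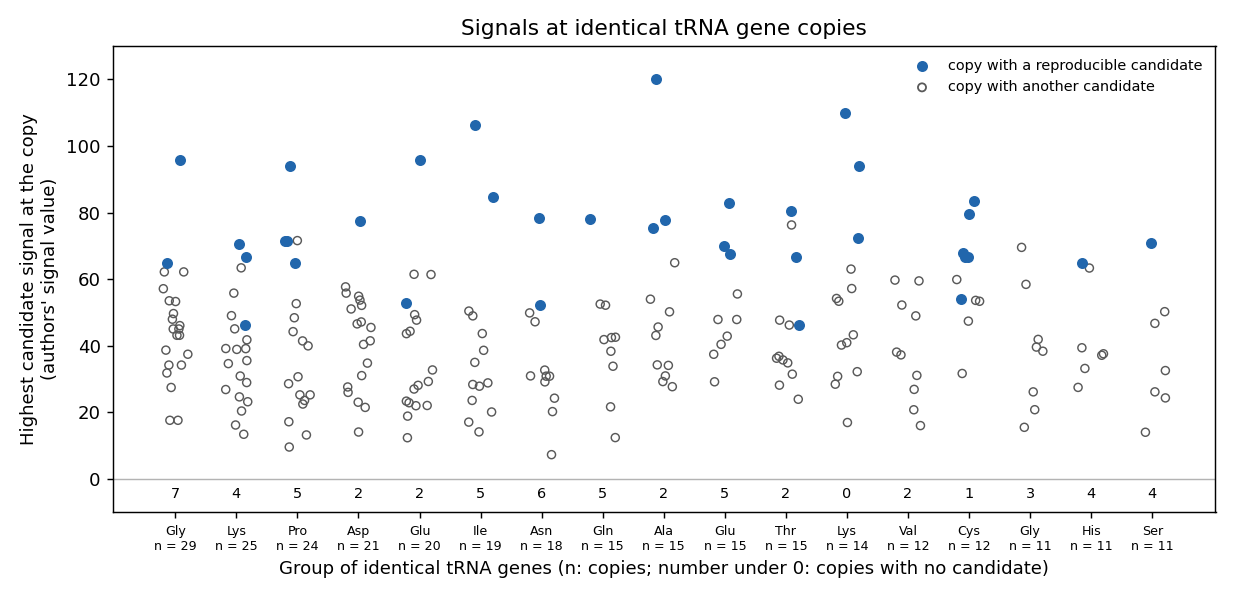
Highest candidate signal (authors' signal value, vertical axis) at each copy of the 17 groups of identical tRNA genes with over 10 copies, 1 column per group (n, number of copies). Blue points are copies with a reproducible candidate, open points copies with another candidate, and the number under 0 counts copies with no candidate. Signals of identical copies spread widely, from 17.6 to 95.8 in the group of 29 Gly genes.

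The B box core was nearly universal and did not differ with the calls. It was found in 587 of the 612 genes, in 95.3% of those with a reproducible candidate and 96.0% of those without, against 2.44% of genome windows of 72 bp searched on both strands. The A box core was found in 39 of the 64 reproducible genes (60.9%) and in 224 of the 548 others (40.9%), against 6.51% of such windows. Read the other way, 14.8% of genes with the A box core were reproducible (interval 10.8 to 19.7) and 7.16% of those without it (interval 4.69 to 10.4). Only these fixed letters were searched, so a gene without the core may still hold another form of the A box. The core follows the isotype: 9 of the 20 isotypes had it in every gene or in none, and Ser was the one isotype with at least 5 genes of each kind. Of the Ser genes, 1 of 9 with the core (11.1%) and 2 of 30 without it (6.67%) were reproducible, too few to compare. All 13 Cys and 33 of 34 Ala genes held it, as did all 14 Phe genes, of which none was reproducible. Counted once per sequence, 20 of 88 sequences with the core (22.7%) and 16 of 112 without (14.3%) had a reproducible copy. The median signal was 39.1 with the core and 38.7 without, and at an IDR of 0.05 the shares were 24.7% and 18.9%.

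tRNA pseudogenes, degenerate copies annotated by RefSeq, offered a comparison with much of the same sequence. Candidates lay at 124 of 209 (59.3%, interval 52.3 to 66.1), and reproducible ones at 2 (0.957%, interval 0.116 to 3.41), an interval that does not reach that of tRNA genes. The B box core was still present in 79.4% of them on either strand. Their regions were less unique, with a median of 16.97% of 31-base words found once against 47.1% at tRNA genes, so lower mappability and lower signal cannot be told apart. In replicate 1's own list 37.8% of the pseudogenes had a candidate, and in replicate 2's own list 36.8%, both below the 66.8% and 68.3% of the tRNA genes.

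Other genes tied to RNA polymerase III gave a mixed picture. The RNase P RNA gene rpr-1 had a reproducible candidate with a signal of 217.1, above every tRNA gene, and the Y RNA gene yrn-1 one of 63.7. The RNase MRP RNA gene mrpr-1 had a candidate of 53.0 that was not reproducible. Of 16 5S rRNA genes, 6 had any candidate (37.5%, against 45.8% of the tiles) and 1 a reproducible one (6.25%, interval 0.158 to 30.2, against 0.304% of the tiles). A chosen list of 16 protein-coding genes of the polymerase III machinery had candidates in 15 promoters, where 78.8% of all protein-coding promoters had one. None was reproducible, where 0.826% of all promoters were, and 16 promoters are too few to tell none from that share. The highest signal among them was 59.4 at tbp-1, which encodes the TATA-binding protein.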

How the data were processed

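The authors deposited peak lists on ce11, per the labels, for 2 biological replicates. The aligner and caller: not given in the sources used here. Used were the joint candidate list, each replicate's own list, and the conservative and optimal lists. Of each peak the summit, the deposited signal value and the deposited −log10 of the IDR were read. Signals were left unscaled, since the depth of the libraries is unknown. The signal columns of the joint list name no replicate: the first equals a value of replicate 1's own list at 51254 of 105945 peaks and of replicate 2's at 0, and the second equals replicate 2's at 52020 and replicate 1's at 0.

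Coordinates are those of WBcel235, the same assembly; RefSeq gave the same position for 612 of 612 tRNA genes and the sequences. The isotype was taken from the annotation (607 genes). The background was consecutive tiles of 472 bp. With 1 group there is no test between groups, so shares carry exact Clopper-Pearson 95% intervals. Python 3.11.15, numpy 2.4.6, pandas 2.3.3, scipy 1.17.1 and matplotlib 3.10.9 were used, and the counting was checked on simulated data. Named are the genes at the 15 highest reproducible summits, the highest gene of each isotype and the extremes of the largest mixed group of copies; any other gene was picked with its values known. Sequences of chromosome I, and of genes with an identical copy there, are not shown. The members, the lists and the rules were chosen with earlier results of these data known.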

Additional observations from a re-analysis of the deposited data

How the results depend on the processing

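The share of tRNA genes with a reproducible candidate (10.5%) was 12.1% within 500 bp, 21.4% at an IDR of 0.05, 12.6% with the optimal list (0.339% of tiles called), 8.82% with each summit given to its nearest gene and 12.6% in regions at least 50% unique. With 1 replicate left out, each time using the own list of the other, it was 0.490% to 2.78%. X exceeded autosomes by 4.05 percentage points, by 2.54 within 100 bp, 7.01 within 500 bp and 2.16 with the optimal list; at an IDR of 0.05 the difference was −2.03, and with 1 replicate left out −0.23 to 1.54. Intronic minus other genes was −5.06, −1.14 with the optimal list, −9.41 in regions at least 50% unique and −3.31 with hosts on the same strand alone; it was 0.79 at an IDR of 0.05 and −1.24 to 0.40 with 1 replicate left out. Clustered minus single genes was 1.60, −0.94 within 100 bp, 5.15 within 500 bp, −0.48 with the optimal list, −2.64 with the nearest gene and 7.09 with clusters at 400 bp, and −0.80 to 1.69 with 1 replicate left out. The median signal of reproducible candidates (73.5) was 64.4 at an IDR of 0.05 and 47.1 to 57.2 with 1 replicate left out, where it is that replicate's own signal. With 1 gene kept per identical sequence, the first along the genome, Glu, Gln, Tyr, Asn, His, Met, Trp, Arg and Gly each had a reproducible share of 0%. This pick runs from I to V, then X, so it drops X copies wherever an autosome holds the same sequence. The cause of these shifts was not tested. Of the alternatives for the overall share, the differences and the median signal, 20 moved by less than the spread between replicates. That spread was taken as the standard deviation of the values in the replicates' own lists. The 1.69 for clustered minus single genes, with replicate 2 left out, is 1 of these 20, and the rest are not printed above. Those values are another measure than the joint list, so this spread does not show how far the joint values vary. No paired analysis was possible because there is 1 group. Unknown depth, control data that were not analysed and multiply placed reads limit every value here.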

Other observations

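Counts by anticodon were small. Among Pro genes, 3 of 6 with the anticodon AGG had a reproducible candidate (interval 11.8 to 88.2), 4 of 31 with TGG (interval 3.63 to 29.8) and 0 of 4 with CGG, and the intervals overlap. Of the AGG genes, C16B8.t2 and C16B8.t3 share 1 summit. Among Ala genes, 3 of 8 with TGC, 2 of 4 with CGC and 3 of 21 with AGC had one. Anticodons were read from the gene sequence and found in 553 of the 612 genes.

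F44A2.t1, an Ala gene on V with a sequence of its own, had 2 reproducible candidates, with signals of 67.3 and 9.04 and the same replicate values of 30.6 and 34.4 at both.

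K01A12.t2, a Cys gene, had candidates in the replicates' own lists, with signals of 15.1 and 17.1, and none in the joint list.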
